A study of Mus musculus with 5 samples.

Results

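Transcripts for cholesterol synthesis, uptake and efflux were followed in mouse macrophages from bone marrow as they formed osteoclasts, giant cells with many nuclei that dissolve bone. The set was chosen by gene function, with earlier results of these data known, and holds 33 genes. Of these, 29 had an array row whose annotation names that gene alone, out of 22180 genes with such a row in the series, and Acat2, Idi1, Soat1 and Nr1h2 were not analysed here. All 29 had a mean over the arrays at or above 4.89 on the log2 scale, the level above which 12049 genes are called measured. For Ch25h, Lpl, Npc1 and Scap, which had several rows, the brightest row was used.

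Bone marrow of wild-type mice aged 10 weeks was grown on plastic, and the macrophages received 20 ng/ml M-CSF, which sustains the lineage, and RANKL at 30 ng/ml, the signal for osteoclast formation. The groups were the macrophages at day 0, the differentiating cells at days 1, 2 and 3, and the cells labelled mature osteoclasts at day 5. Each day had 1 Affymetrix array, 5 in all, hybridised from 5 ng of total RNA. The spread between cultures is unknown with 1 array per day, so each difference below sets single arrays side by side and has no p-value. No array of cells kept without RANKL is part of the series, so days in culture and RANKL treatment cannot be told apart. All values are log2 RMA values (RMA is the background correction, quantile normalisation and probe summary that the submitters' notes name), and differences are the later day minus the earlier day. A gene was counted when this difference was 1 or more in size, which is 2-fold. As a yardstick, 2 rows of the same gene disagreed in their difference of day 1 from day 0 with an SD of 0.45 over 500 genes, or 0.32 for 1 row. For day 5 against day 0 these SDs were 0.59 and 0.42. For day 5 against day 3, where the measured genes differed less, they were 0.31 and 0.22. These SDs may thus hold more than measurement noise, and they do not cover the spread between cultures.

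The labelled cell types were checked against their markers. All 10 osteoclast markers were counted as higher at day 5 than at day 0, with a median difference of 6.06, led by the carbonic anhydrase gene Car2 (6.91). Of 8 measured macrophage markers 4 were counted as lower at day 5 (median -1.16), namely Cx3cr1 (-3.46), Fcgr1 (-2.54), Ccr2 (-1.84) and Irf8 (-1.33), but all 8 stayed above the level filter on every array. All 7 lymphoid markers with a row lay below that level at days 1, 2, 3 and 5 and 6 of the 7 at day 0. Of 10 stromal and adipocyte markers 8 lay below it at day 0, 8 at days 1 and 2 and 7 at days 3 and 5. The exception in size was Dcn, which encodes the matrix proteoglycan decorin, and which read 5.20 at day 0, 8.45 at day 1, 8.44 at day 2, 7.99 at day 3 and 7.13 at day 5. The collagen gene Col1a1, the other marker above the filter at day 0, stayed between 5.06 and 5.38.

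Cholesterol is built from acetyl-CoA through mevalonate and the isoprenoid pyrophosphates, which are also the source of the prenyl groups that anchor small GTPases, and then through squalene and lanosterol. The transcription factor SREBP2 (gene Srebf2) switches on the enzymes of this route when sterols in the endoplasmic reticulum are low, and the INSIG proteins hold its escort SCAP back when sterols are plentiful. The nuclear receptors LXR-alpha (Nr1h3) and LXR-beta (Nr1h2) respond to oxysterols and switch on exporters such as Abca1 and Abcg1. In osteoclasts the mevalonate route is known as the target of nitrogen-containing bisphosphonates, bone drugs that inhibit the enzyme encoded by Fdps.

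The sequences upstream of several members were examined because the members share regulators that bind close to the start of their genes. RefSeq promoter windows of assembly GRCm38.p6, from 250 bases before to 50 bases after an annotated start, were given for 26 of the 33 genes and not for Abcg1, Fdft1, Fdps, Lpl, Npc1, Sqle or Stard4. In each stretch shown, which runs from 220 to 21 bases before the start and is written 5′ to 3′ on the strand of the gene, capitals mark matches on either strand to 4 motifs. These are the sterol regulatory element core TCACNCCA, the NF-Y box CCAAT, the E-box CACGTG and an LXR direct repeat, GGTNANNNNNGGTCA. A gene with several windows was counted when any of them held the motif. A sterol core can overlap a CCAAT box in its last letters.
Hmgcs1 (chr13:119690131-119690330, plus strand): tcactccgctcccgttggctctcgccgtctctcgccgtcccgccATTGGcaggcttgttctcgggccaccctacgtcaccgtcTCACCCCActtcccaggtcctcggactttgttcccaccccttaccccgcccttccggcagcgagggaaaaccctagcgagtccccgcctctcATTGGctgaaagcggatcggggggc
Srebf2 (chr15:82147049-82147248, plus strand): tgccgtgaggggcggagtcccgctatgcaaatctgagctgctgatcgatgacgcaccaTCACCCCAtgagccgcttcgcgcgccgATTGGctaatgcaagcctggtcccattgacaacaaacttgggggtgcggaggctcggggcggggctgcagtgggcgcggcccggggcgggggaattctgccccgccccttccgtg
Msmo1 (chr8:64733599-64733798, minus strand): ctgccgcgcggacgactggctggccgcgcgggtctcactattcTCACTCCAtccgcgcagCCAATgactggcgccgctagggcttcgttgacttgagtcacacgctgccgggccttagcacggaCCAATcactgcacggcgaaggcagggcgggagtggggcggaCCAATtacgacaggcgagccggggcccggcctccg
Cyp51 (chr5:4104718-4104917, minus strand): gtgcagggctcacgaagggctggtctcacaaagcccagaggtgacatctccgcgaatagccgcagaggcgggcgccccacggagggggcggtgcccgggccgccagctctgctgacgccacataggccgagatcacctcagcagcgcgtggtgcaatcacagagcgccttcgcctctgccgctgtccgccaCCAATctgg
Insig1 (chr5:28071192-28071391, plus strand): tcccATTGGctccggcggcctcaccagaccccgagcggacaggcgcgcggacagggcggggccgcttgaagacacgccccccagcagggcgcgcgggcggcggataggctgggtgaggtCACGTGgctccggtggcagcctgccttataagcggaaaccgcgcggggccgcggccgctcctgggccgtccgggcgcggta
The stretches of Hmgcs1, Srebf2 and Msmo1 are shown because each holds the sterol core beside a CCAAT box, Cyp51 as an enzyme whose stretch holds a CCAAT box but none of the other 3 capitalised motifs, and Insig1 because it has a CCAAT box and an E-box. The sterol core began 137 bases before the start of Hmgcs1, 162 before that of Srebf2 and 177 before that of Msmo1, and Apoe had it 213 bases before 1 of its starts. These were 4 of the 26 genes (15.4%), against 4.34% of 9534 measured genes with a window and 4.97% of all 27025 genes with one. The CCAAT box was present in 13 of 14 synthesis enzymes (92.9%), Acat2 being the exception, and in 6 of the 12 other members (50%), against 42.5% of measured genes. The GC box GGGCGG, which is not capitalised above, was found in 13 of the 14 enzymes (92.9%) and in 66.6% of measured genes, and the E-box in 3 of the 14 (21.4%) and in 11.6%. A match is a description of the letters and not a site of binding. Only these exact patterns were searched, so a stretch without a match, such as that of Cyp51, may still hold a sterol element with other letters.

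The cholesterol genes were lower as a set on the array of day 1 than on that of day 0. Of the 29 genes, 12 were at least 2-fold lower at day 1 (41.4%), where 4.17% of all measured genes were, and 1 was at least 2-fold higher, where 2.91% were. Their median difference was -0.79 and that of all measured genes 0.00. At day 2, 10 were lower (5.25% of all measured genes) and 1 higher (5.18%), and at day 3, 9 were lower (7.5%) and 1 higher (7.29%). At day 5, 7 were lower (6.56%), 3 higher (6.78%) and 19 neither, with a median of -0.52. With arrays centred on the median level of 12 reference genes, which was itself 0.49 higher at day 5 than at day 0, the day 5 split was 15 lower and 1 higher. Those genes ran from Hprt (-0.59) to Sdha (1.10) at day 5. Shifting the arrays by the median of those genes' own differences instead, an alternative added after seeing the data, gave 7 lower and 2 higher. All measured genes move with such a scaling, so the shares given above do not apply to either split. Against day 1 in place of day 0, however, 0 of the 29 were lower at day 5 (6.73% of all measured genes), 4 were higher (6.3%) and the median was 0.29. The lower counts against day 0 thus rest on the day 0 array, which all of these comparisons share. In bulk RNA, fewer cells of a type and less RNA per cell cannot be told apart.

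**Figure D1:**
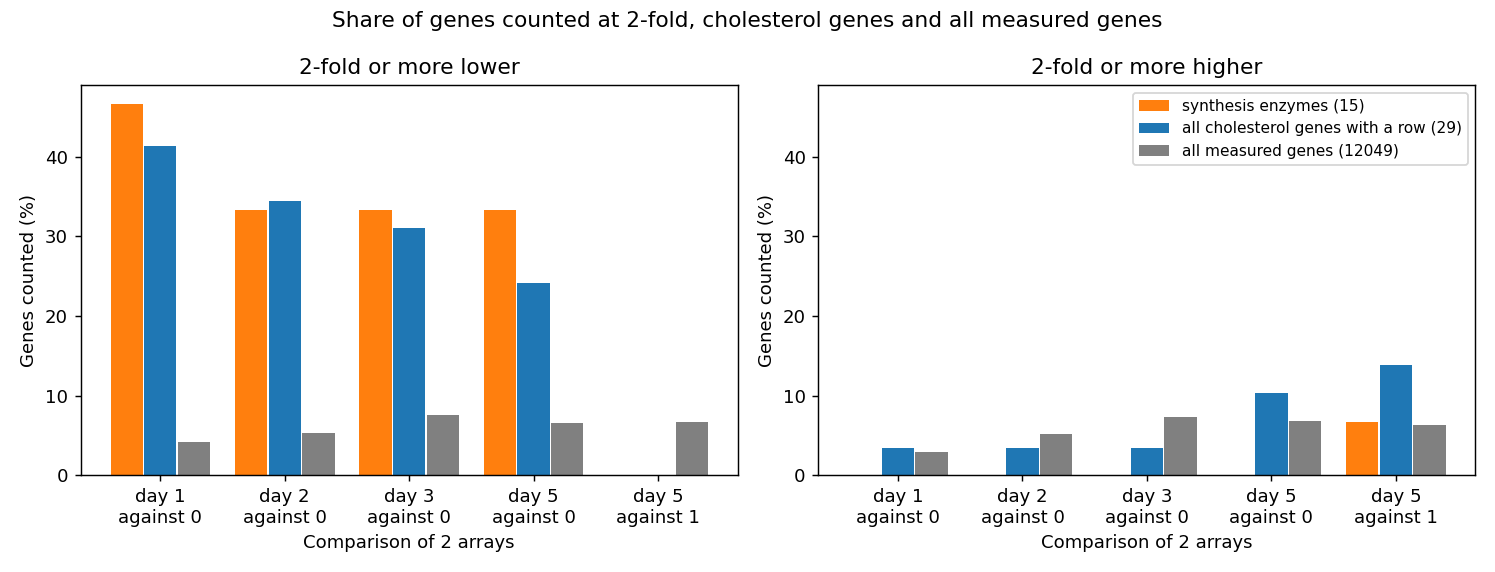
Percent of genes (vertical axis) at least 2-fold lower (left) or higher (right) in each comparison of 2 arrays, for the 15 synthesis enzymes, the 29 cholesterol genes with a row and all 12049 measured genes. The lower bars of the cholesterol genes stand at 41.4% for day 1 against day 0 and at 24.1% for day 5 against day 0, and at 0% for day 5 against day 1.

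Macrophage markers moved on the same arrays: 6 of 8 measured ones were at least 2-fold lower at day 1 than at day 0 (median -1.79) and 7 of 8 at day 2 (median -2.01). Proliferation markers had a median of 0.23 at day 1 and of -0.17 at day 2 with 0 of 9 lower on either day, and all 9 were lower at days 3 and 5 (medians -1.92 and -1.87), with Aurkb lowest at day 5 (-2.16). The median of the synthesis enzymes was -0.9986 at day 1, -0.91 at day 2, -0.54 at day 3 and -0.65 at day 5. The mean of the enzymes was instead lowest at day 2 (-0.94, with -0.91 at day 1). Of the 15 enzymes 6 had their lowest value at day 2 and 5 at day 1. The day of the lowest enzyme level thus depends on the statistic used. Neutrophil markers had medians of 0.17 at day 1 and -1.15 at day 5, with 0 and 4 of 7 lower, the 4 being S100a9 (-1.38), Ngp (-1.38), Elane (-1.27) and Ltf (-1.15). The stromal marker Dcn was 3.26 higher at day 1 than at day 0 and 1.93 higher at day 5. The part of the macrophage, neutrophil, stromal and dividing cells in the cholesterol genes' values was not tested.

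**Figure D2:**
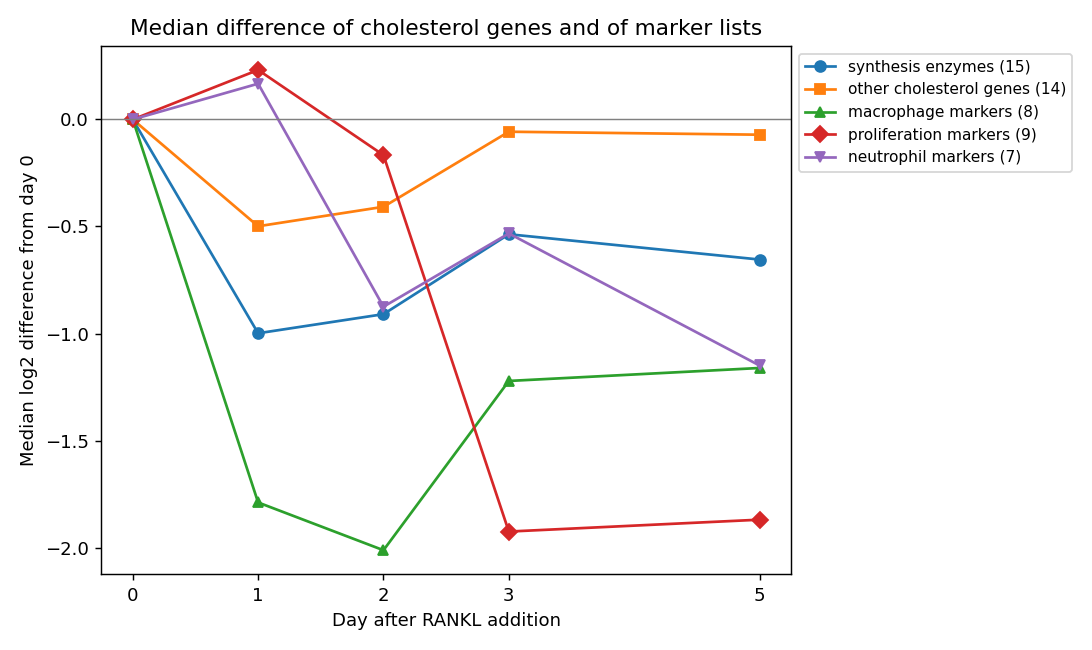
Median log2 difference from day 0 (vertical axis) on the arrays of days 0, 1, 2, 3 and 5 (horizontal axis) for 15 synthesis enzymes, the 14 other cholesterol genes and 3 marker lists. By median, the synthesis enzymes are lowest at day 1 (-0.9986, with -0.91 at day 2). The macrophage markers are lowest at day 2 (-2.01) and the proliferation markers at day 3 (-1.92).

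All 15 synthesis enzymes were below their day 0 value on the arrays of days 1, 2 and 5, and 14 of 15 at day 3. Of all 12049 measured genes, 5203 were below it at day 1, 5235 at day 2, 5866 at day 3 and 5925 at day 5. The highest of the 5 values was that of day 0 for 14 of the 15 (93.3%), against 27.4% of all measured genes, and Pmvk was the exception. Size differed between enzymes, with 7 of 15 counted as lower at day 1 (4.17% of all measured genes) and 5 at day 5 (6.56%). At day 5 these were Sqle, Hsd17b7, Fdft1, Mvk and Fdps.

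Hmgcs1, the synthase that makes HMG-CoA at the entry of the mevalonate route, read 9.57 at day 0, 7.69 at day 1, 8.53 at day 2, 9.28 at day 3 and 8.91 at day 5. It was thus 3.68-fold lower at day 1 than at day 0 and 2.34-fold higher at day 5 than at day 1. In the latter comparison it was the only 1 of 15 enzymes counted as higher (6.67%), near the 6.3% of all measured genes. Its promoter stretch above holds the sterol core and 2 CCAAT boxes. Mvk, the mevalonate kinase, took another course, with 7.87 at day 0, 7.30 at day 1, 7.16 at day 2, 7.02 at day 3 and 6.79 at day 5. Each later array was lower than the one before, and the difference passed 2-fold only at day 5 (-1.07). The next kinase of the route, Pmvk, varied least among the mevalonate genes and lay between 8.21 at day 2 and 8.70 at day 3.

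Mvd, the decarboxylase that makes isopentenyl pyrophosphate, read 9.01 at day 0, 8.33 at day 1, 8.01 at day 2, 8.73 at day 3 and 8.62 at day 5. It was lowest at day 2, with a difference from day 0 just short of the 2-fold mark (-0.9992). For Fdps, the farnesyl pyrophosphate synthase, the values were 11.32 at day 0, 9.96 at day 1, 9.71 at day 2, 10.20 at day 3 and 10.31 at day 5. All 4 later arrays were at least 2-fold below day 0, by 3.06-fold at day 2, but the day 5 difference of -1.0035 stood at the edge of the 2-fold mark and was -0.97 when arrays were centred on their medians.

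Squalene formation and its oxidation to the first sterol followed. Fdft1, the squalene synthase that commits farnesyl pyrophosphate to sterols, read 10.38 at day 0, 9.04 at day 1, 8.99 at day 2, 9.37 at day 3 and 9.29 at day 5. It was at least 2-fold lower on every array after day 0, by 2.53-fold at day 1 and 2.12-fold at day 5. Sqle, the squalene epoxidase, a rate-controlling oxygenase of the route, read 10.84 at day 0, 9.66 at day 1, 9.40 at day 2, 9.09 at day 3 and 9.19 at day 5. Unlike Hmgcs1 it stayed low, 3.35-fold below day 0 at day 3 and 3.14-fold at day 5, the largest day 5 difference among the enzymes. Lss, the cyclase that makes lanosterol, read 7.73, 6.73, 6.86, 7.19 and 7.06 over the same days, and its day 1 difference of -0.9986 lay just outside the count.

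Among the enzymes that turn lanosterol into cholesterol, Cyp51, the lanosterol demethylase, read 8.91 at day 0, 7.63 at day 1, 7.35 at day 2, 7.91 at day 3 and 7.97 at day 5. It was lowest at day 2, at 2.94-fold below day 0, and 1.91-fold below it at day 5. Hsd17b7, a ketosteroid reductase that acts on the sterol ring, read 7.89 at day 0, 6.87 at day 1, 6.98 at day 2, 6.45 at day 3 and 6.68 at day 5. Like Sqle it was lowest at day 3, by 2.71-fold. Sc5d, the sterol desaturase, was 2.02-fold lower at day 1 (8.22 against 9.23) and 1.52-fold lower at day 5 (8.63).

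The remaining enzymes stayed within 2-fold of day 0 throughout. The oxidase Msmo1 and the dehydrogenase Nsdhl, which together strip methyl groups from the sterol ring, had their lowest values at different days. Msmo1 stood at -0.50 at day 1 and -0.87 at day 2, and Nsdhl at -0.79 at day 1 and -0.19 at day 5. The reductase Dhcr7, which makes cholesterol from its dehydro precursor, stood at -0.77 at day 1 and -0.25 at day 5. Ebp, the sterol isomerase, varied least of the 29 genes apart from Npc1, from 10.32 to 10.59 over the 5 arrays.

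**Figure D3:**
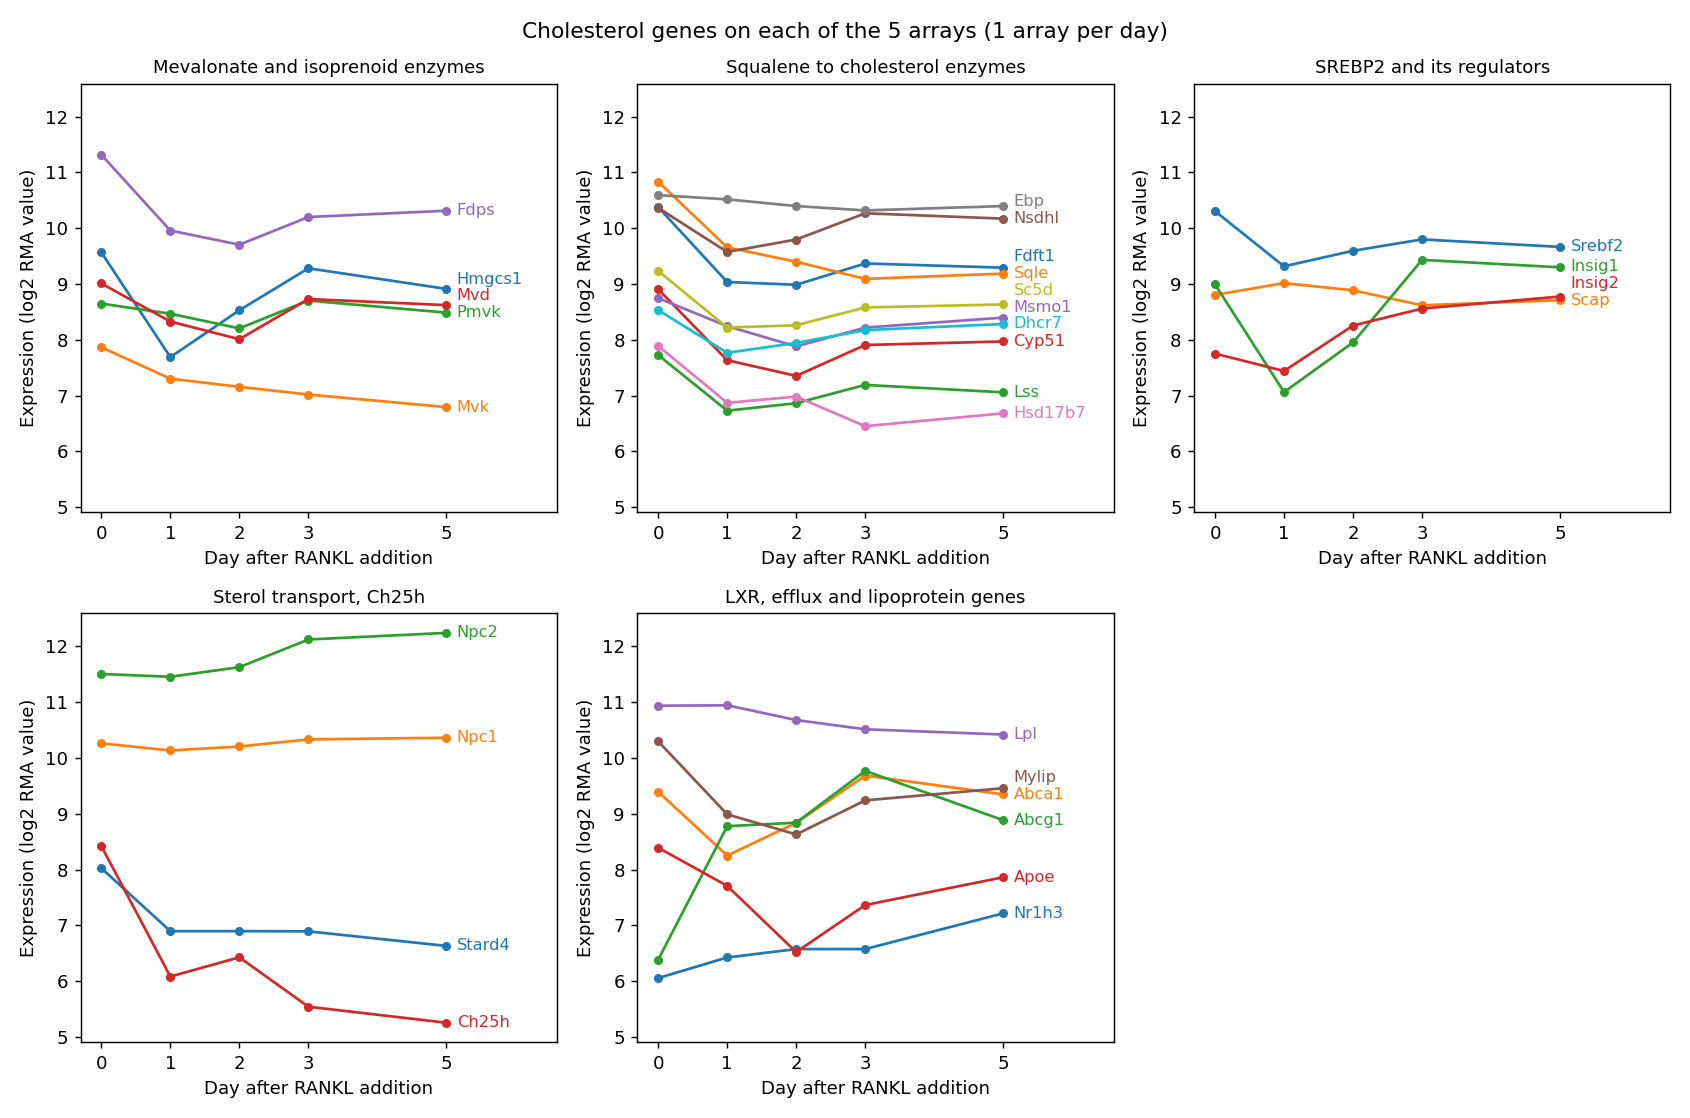
Log2 RMA value (vertical axis) of each of the 29 cholesterol genes on the arrays of days 0, 1, 2, 3 and 5 (horizontal axis), with 1 panel for each role and 1 point per array. Levels of different genes come from different probes and are not comparable. Of the 15 enzymes, 5 are lowest at day 1 and 6 at day 2, Insig1 dips to 7.06 at day 1 and stands at 9.43 at day 3, and Abcg1 lies at 6.38 at day 0 and between 8.78 and 9.77 later.

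The regulators of SREBP2 did not share a common course. Srebf2 itself read 10.31 at day 0, 9.32 at day 1, 9.60 at day 2, 9.80 at day 3 and 9.66 at day 5, with its lowest value at day 1 (-0.99, just outside the count). Its escort Scap lay between 8.62 at day 3 and 9.02 at day 1 and was not counted on any day. Insig1, the retention protein that is itself an SREBP target, read 8.99 at day 0, 7.06 at day 1, 7.95 at day 2, 9.43 at day 3 and 9.30 at day 5. It was 3.82-fold lower at day 1 than at day 0, the second largest decrement among the 29 genes after Ch25h. By day 5 it was 4.72-fold above day 1 and 1.24-fold above day 0, so of the genes counted as lower at day 1 it was the only one above its day 0 value at day 5, though its difference was -0.19 after centring on the reference genes' level and 0.27 after shifting by their own differences. Insig2, the second retention protein, read 7.75 at day 0, 7.44 at day 1, 8.26 at day 2, 8.56 at day 3 and 8.78 at day 5. At day 5 it was 2.03-fold above day 0 (1.02) and 2.52-fold above day 1. The day 5 count of Insig2 was lost (0.53) when arrays were centred on 12 reference genes' median level and (0.99) when they were shifted by those genes' median difference.

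**Figure D4:**
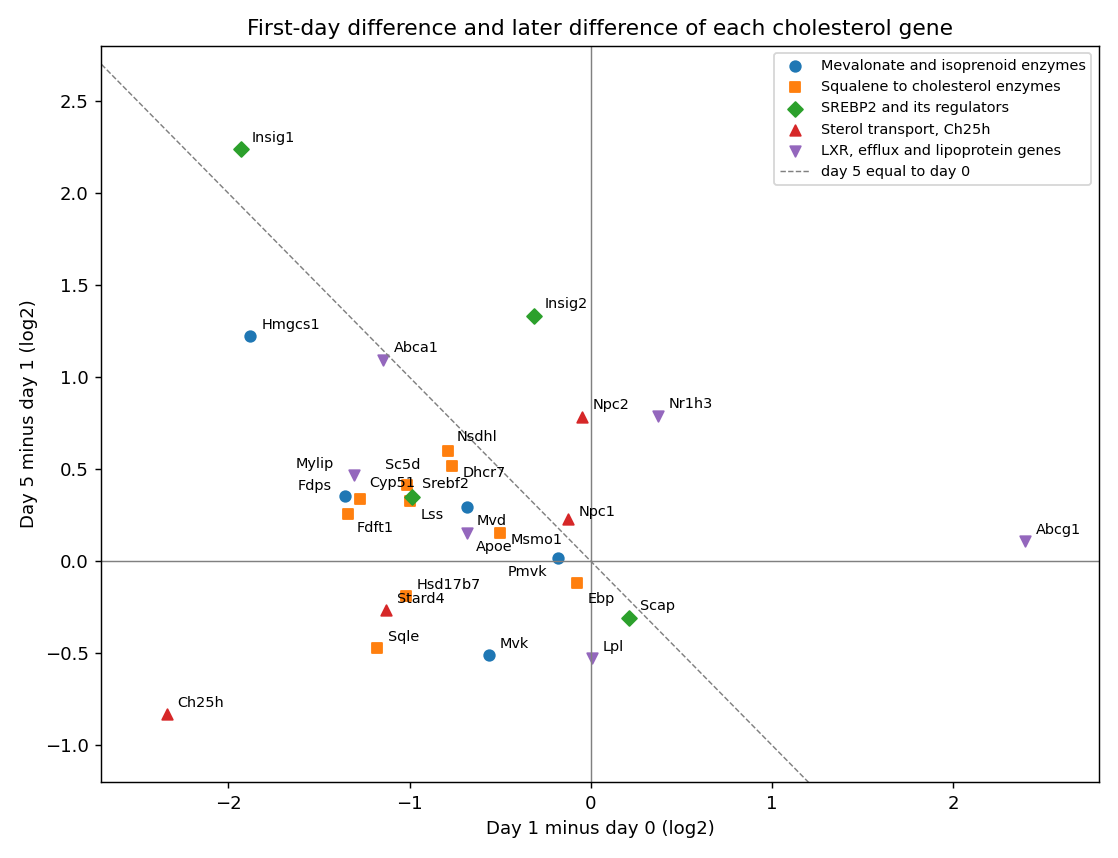
Day 1 minus day 0 (horizontal axis) against day 5 minus day 1 (vertical axis) on the log2 scale for the 29 cholesterol genes, with roles shown by colour and shape. Both axes contain the day 1 array, so noise on that array alone would spread points along the dashed line, where day 5 equals day 0. Insig1 lies above that line (-1.93 and 2.24), Hmgcs1 below it (-1.88 and 1.22), and Sqle, Stard4 and Ch25h in the quadrant lower on both axes.

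Genes of sterol movement inside the cell did not share a course either. Stard4, a soluble carrier that moves cholesterol between membranes, read 8.03 at day 0, 6.90 at days 1 and 2, 6.89 at day 3 and 6.63 at day 5. It was lower by 2.19-fold at day 1 and by 2.63-fold at day 5, with hardly any difference among days 1, 2 and 3. Its values at days 1 and 2 were identical, as were those of 1130 of the 12049 measured genes. The lysosomal exporters differed from it: the membrane protein Npc1 stayed between 10.13 at day 1 and 10.36 at day 5. Npc2, its soluble partner that hands cholesterol over in the lysosome lumen, read 11.51 at day 0, 11.46 at day 1, 11.63 at day 2, 12.12 at day 3 and 12.24 at day 5. Npc2 was thus 1.67-fold higher at day 5 than at day 0 (0.74), which is under the 2-fold mark. After centring on the reference genes' level its difference was 0.25. The SD of 0.42 for 1 row does not cover the spread between cultures and is no test of either value.

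Ch25h, the cholesterol hydroxylase whose product is an oxysterol that holds SREBP2 back and activates LXR, had the largest decrement of the set. It read 8.42 at day 0, 6.08 at day 1, 6.43 at day 2, 5.54 at day 3 and 5.25 at day 5, which is 5.06-fold lower at day 1 and 8.98-fold lower at day 5 than at day 0. Among all 12049 measured genes its day 5 difference ranked 11 from the bottom. A second row of Ch25h lay below the level filter on all arrays, between 4.26 and 4.58, and differed by -0.25 at day 5.

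The LXR and efflux genes held the 2 largest increments of the set at day 5. Of these 6 genes 2 were at least 2-fold higher then, where 6.78% of all measured genes were, and 0 were lower (6.56%). At days 1, 2 and 3, however, 2 of the 6 were lower on each array (4.17%, 5.25% and 7.5% of all measured genes). Nr1h3, which encodes LXR-alpha, read 6.05 at day 0, 6.42 at day 1, 6.57 at days 2 and 3 and 7.22 at day 5. It was 2.24-fold higher at day 5 than at day 0, although the difference against day 1 was under the mark (0.79), as was that from day 0 after centring on the reference genes' level (0.67), but not after shifting by their own differences (1.13). Abcg1, which exports cholesterol to mature high-density lipoprotein, read 6.38 at day 0, 8.78 at day 1, 8.84 at day 2, 9.77 at day 3 and 8.89 at day 5. It was 5.26-fold higher at day 1, 10.5-fold at day 3 and 5.67-fold at day 5 than at day 0, and its day 5 difference ranked 142 from the top of all measured genes. All 4 later arrays lay above day 0 by at least 2.39, while day 5 was only 0.11 above day 1.

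Abca1, which exports cholesterol and phospholipid to lipid-poor apolipoprotein, took a course unlike that of Abcg1. It read 9.40 at day 0, 8.25 at day 1, 8.84 at day 2, 9.69 at day 3 and 9.35 at day 5. It was 2.21-fold lower at day 1 than at day 0 and at day 5 differed by -0.05. Its promoter is shown because the LXR repeat was found in no other of the 26 members with a window:
Abca1 (chr4:53159916-53160115, minus strand): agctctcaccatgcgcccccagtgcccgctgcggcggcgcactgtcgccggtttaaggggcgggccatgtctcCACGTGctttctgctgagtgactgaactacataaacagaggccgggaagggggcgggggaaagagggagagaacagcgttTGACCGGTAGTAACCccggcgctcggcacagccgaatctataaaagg
The repeat lies on the opposite strand, and its capitals begin 67 bases before the start, while an E-box begins 147 bases before it. The repeat was found in 0.157% of measured genes with a window. No window was given for Abcg1, so both exporters could not be set side by side in sequence.

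Apoe, the apolipoprotein that macrophages secrete with exported cholesterol, read 8.39 at day 0, 7.71 at day 1, 6.52 at day 2, 7.36 at day 3 and 7.86 at day 5. Its lowest value came at day 2, at 3.66-fold below day 0, and the step of day 2 against day 1 (-1.19) was the only one counted as lower among the 29 genes, where 0.556% of all measured genes were. None of the 29 was counted as higher in that step, against 2.46% of measured genes. Mylip, an LXR target whose ubiquitin ligase removes lipoprotein receptors, read 10.30 at day 0, 8.99 at day 1, 8.63 at day 2, 9.24 at day 3 and 9.46 at day 5. It was 3.18-fold lower at day 2 and 1.79-fold lower at day 5. Lpl, the lipase that frees fatty acids from lipoproteins, read 10.94 at days 0 and 1 and 10.42 at day 5, a difference of -0.52 between days 5 and 0 that its second row (-0.035) did not share.

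**Figure D5:**
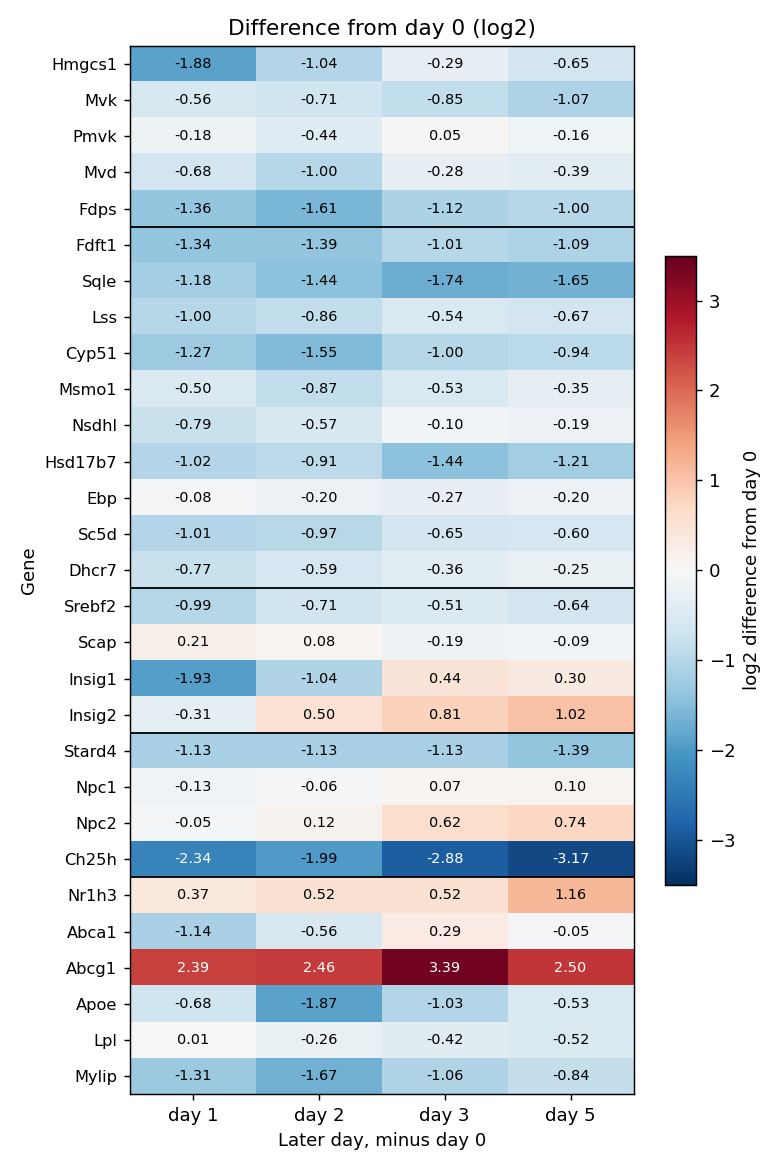
Log2 difference from day 0 for the arrays of days 1, 2, 3 and 5 (columns) for each of the 29 cholesterol genes (rows, in 5 blocks by role), with the value in each cell and red for higher. Abcg1 is the only gene at 2 or more in each column (2.39 to 3.39), and Ch25h has the lowest value of each column.

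Between later days few of the genes passed the 2-fold mark. For day 3 against day 2, 1 of the 29 was at least 2-fold higher, Insig1 (1.48), where 2.08% of all measured genes were, and 0 were lower (3.91%). In that step 20 of the 29 were above 0 (median 0.33), where 5480 of all 12049 measured genes were (median 0.00). For the synthesis enzymes 11 of 15 were above 0 (median 0.34). For day 5 against day 3, 0 of 29 were counted either way, where 0.158% of measured genes were higher and 0.116% lower. The largest step there was that of Abcg1 (-0.88), and Nr1h3 stood at 0.64.

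Other genes of the same pathways were taken from lists beside the members, and their counts stand beside 6.56% lower and 6.78% higher among all measured genes at day 5, and 4.17% lower and 2.91% higher at day 1. At day 5, 3 of 8 measured further genes of sterol synthesis were counted as lower and 0 as higher (median -0.37). They were the sterol reductases Lbr (-1.93), which is also an inner nuclear membrane protein, and Tm7sf2 (-1.33), and the scaffold Erg28 (-1.10), while the mitochondrial thiolase Acat1 stood at 0.98. Lbr differed by only -0.26 at day 1, when Tm7sf2 was already at -1.18. The prenyl branch, with the transferases and synthases that use farnesyl and geranylgeranyl groups, had 0 of 13 measured genes counted at day 1 or at day 5 in either direction (medians 0.10 and -0.10). Its extremes at day 5 were Pdss2 (0.62), of ubiquinone synthesis, and the prenyl protein protease Rce1 (-0.69).

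Of 13 measured further genes around SREBP processing, 3 were higher at day 5, 0 lower and 10 neither (median 0.08). They were Spring1 (1.67), a Golgi protein needed for SREBP cleavage, the deubiquitinase Usp20 (1.32) and the heme-binding membrane protein Pgrmc1 (1.28). Lowest among them was the sterol-binding Tmem97 (-0.64). In lipoprotein uptake and sterol transport, 5 of 25 were lower, 3 higher and 17 neither at day 5 (median -0.15), from the lipoprotein receptor Lrp8 (-2.65) to the lysosomal membrane protein Laptm4b (2.60). Further LXR partners and targets had 0 of 11 counted at day 5 in either direction (median -0.17), between Scd1 (-0.88) and Rxrb (0.35). At day 1, however, 2 of these 11 were lower, the transporter Abca9 (-1.97) and the phosphodiesterase Smpdl3a (-1.13), both named after their values were seen. Of 5 measured oxysterol enzymes and receptors 1 was higher at day 5, Hsd3b7 (1.84), an enzyme of bile acid synthesis, and Sult2b1 was lowest (-0.17).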

How the data were processed

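Per the labels' protocols, Trizol was used for RNA and the Affymetrix WT Pico kit for biotinylated cDNA. The authors deposited log2 values from RMA, with oligo and R 3.4.0 named in the submitters' processing notes. Genes were named from the platform's probe annotation in GEO. The summary level of the rows and the genome build of that annotation are not stated there, so no gene coordinates are printed beside the RefSeq promoters. Quantile normalisation hides a shift of all genes between days, and background handling compresses differences of low genes.

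Of 41345 rows, 23521 named 1 gene, 1814 several and 16010 were not listed. Rows naming several genes or none were left out. The brightest row of each gene was used, giving 22180 genes. The Entrez identifiers of all 29 members with a row matched RefSeq of assembly GRCm38.p6, and a window was available for 26 of 33 members and for 27025 genes. Each comparison is a difference between 2 arrays, with no test. The level filter of 4.89 is the median row mean. Arrays were assigned to days from the time in the labels. The counting was tested on simulated data. All members are named. From each further, marker and reference list the measured genes with the largest differences in each direction at day 5 are named, with every counted gene where at most 6 were counted. The members, lists and alternatives were chosen with earlier results of these data known, and 1 scaling was added after seeing the data. Some markers and further genes listed had no row analysed here. Python 3.11.15, numpy 2.4.6, pandas 2.3.3 and matplotlib 3.10.9 were used. Precision is limited by the 5 arrays.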

Additional observations from a re-analysis of the deposited data

How the results depend on the processing

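Results were recomputed with other array scalings, row rules, level filters, counting marks and days, and with means. The count of 12 members lower at day 1 stayed within 1.5 times, between 9 and 18, as did the day 1 median of the synthesis enzymes, between -1.21 and -0.89. With day 1 in place of day 0 the day 5 medians of all members and of the synthesis enzymes were both 0.29, with 0 members lower at day 5. The difference of Fdps became 0.36 and that of Fdft1 0.26. Centring arrays on the median level of 12 reference genes, which itself was 0.49 higher at day 5 than at day 0, gave 15 lower and 1 higher members at day 5. The medians were then -1.01 for all members and -1.14 for the synthesis enzymes, and 0.017 for the enzymes at day 5 against day 1. Sdha alone of the reference genes was counted, and it passed from below their median level at day 0 (11.19 against 11.48) to above it at day 5 (12.29 against 11.97). The reference genes' own differences had a median of only 0.032 at day 5. Shifting arrays by this instead, a choice made after seeing the data, gave 7 lower and 2 higher members. With a filter at the 75th percentile of row means (7.11), 4 of the 25 members left were lower at day 5. The genes Ch25h, Hsd17b7 and Stard4, counted as lower, fell below that filter. So did Nr1h3, counted as higher, which left 2 members higher. At a mark of 1.5-fold 13 of the 29 members were lower. Shares of all measured genes are not given for the other scalings, row rules, filter or mark. The member counts under them thus cannot be set against the 2-fold shares above. With day 3 in place of day 5, 1 member was higher. No paired analysis was possible because each day has 1 array. The cause of these differences was not tested where none is given.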
